A study of Bos grunniens with 18 samples.

Results

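Expression in the yak ovary during pregnancy was compared with that during anestrus, using 3 input RNA libraries from each stage (YO_P1 to YO_P3 and YO_A1 to YO_A3), which are 6 of the 18 libraries of the series. All genes with a mean of at least 0.1 FPKM (fragments scaled to exon length and to the mapped reads of the library) over the 9 input libraries of the 3 stages entered the comparison, which took in 130 of the 173 genes with values in the part of the table analysed here. Ovaries came from healthy Bos grunniens cows aged 6 years, kept on the same farm and killed in April (anestrus) or in December (pregnancy), so that stage and month of collection cannot be told apart. Frozen ovarian tissue was used, a segment left after another had been fixed for histology. Each library is labelled as a separate sample of its stage, and neither the month of gestation nor whether a piece held corpus luteum is given for a library. The 3 estrus libraries (YO_F1 to YO_F3, August) are shown beside these groups in the figures of levels by library, and in the text for some genes. YO_F1 and YO_F3 also entered the fit, where they added to its estimate of the spread within stages. YO_F2 was left out of the fit, following the methods of the study. The other 9 libraries are m6A immunoprecipitates.

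The cow's ovary in anestrus holds follicles that grow and regress without ovulation, and progesterone is low. In pregnancy a corpus luteum persists, a densely vascular gland whose luteal cells make progesterone and in which macrophages and lymphocytes reside. The genes through which this contrast is usually described could not be examined. None of 78 markers of granulosa cells, theca cells, oocytes or progesterone synthesis is among the 173 genes (0 of 78), so the ovarian label could not be checked against its defining markers. Chromosome 1 holds 135 of the 173 genes and the remainder lie on chromosomes 2 to 4, so counts and shares apply to these genes alone.

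Few of the 130 genes differed between the stages. A gene was called when its log2 fold change was 1 or more in size and its unadjusted p was under 0.05, the study's standard. By this standard 3 genes were called, which is 2.31% of those tested. All 3 were higher in pregnancy: CD84, the gene annotated as SLAM family member 6 (ENSBGRG00000000226) and ENSBGRG00000000121. The genes that met it in the lower direction numbered 0. With the limma test and Benjamini-Hochberg adjustment, 0 genes had an adjusted p under 0.05, the smallest adjusted p was 0.874, and 4 genes (3.08%) had an unadjusted p under 0.05, the fourth being SOD1. Fold changes are given as the difference of means of log2(FPKM + 0.1), pregnancy minus anestrus, which understates the change of genes near 0.1 FPKM.

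The typical gene lay near 0. The median log2 fold change of the 130 genes was -0.03, with quartiles of -0.19 and 0.16, and 107 genes changed by less than 0.5 in size. The precision of the limma fit depended on the level of the gene. For the 53 genes with a mean of at least 10 FPKM, the 95% interval reached a median of 0.37 to either side of the estimate, 51 of 53 intervals stayed within 1 log2 unit of 0, and no estimate exceeded 0.63 in size. For the 52 genes between 1 and 10 FPKM, the median reach was 0.69 and 28 intervals stayed within 1 log2 unit. For the 25 genes under 1 FPKM, it was 1.73 and 0 intervals did. Changes of 2-fold in either direction therefore lay outside the interval for 79 of the 130 genes (60.8%), mainly the abundant ones, and could not be resolved for the scarce ones. Replicate spread narrowed in the same way, since the median coefficient of variation among anestrus libraries was 12.3% in the most abundant class and 82.8% in the scarcest.

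**Figure D1:**
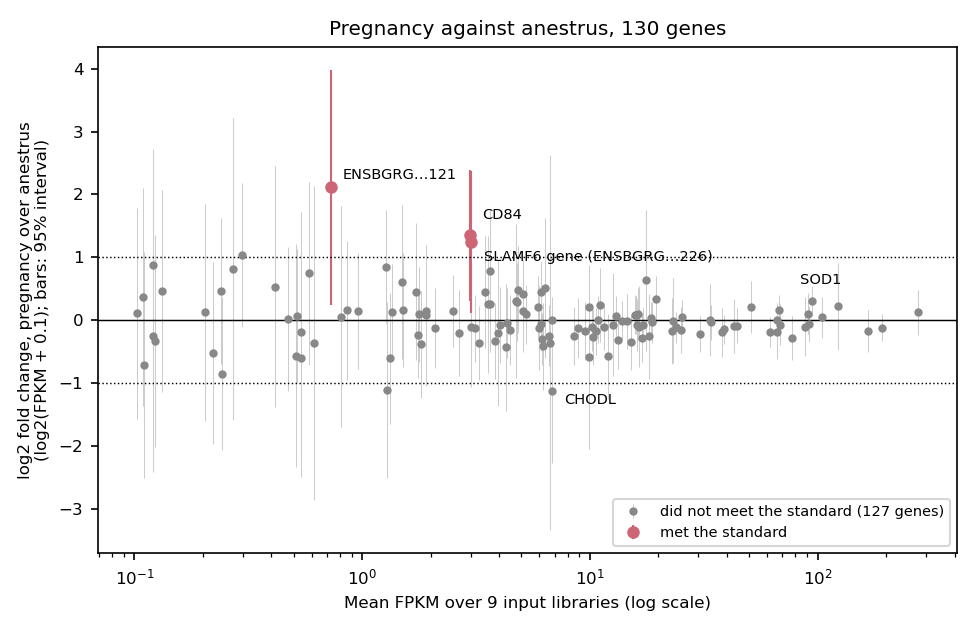
Log2 fold change (pregnancy over anestrus, log2(FPKM + 0.1)) against mean FPKM over 9 input libraries on a log axis. Each point is 1 of 130 genes, bars are 95% intervals from limma, dotted lines mark a log2 fold change of 1 in size, and the 3 coloured points met the study's standard; intervals narrow from left to right.

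The stages were about as far apart as libraries of the same stage. Over the 130 genes, the median absolute log2 difference between an anestrus and a pregnancy library was 0.20 to 0.46 in the 9 possible pairs. It was 0.29 to 0.43 in the 3 pairs within anestrus and 0.26 to 0.32 in the 3 pairs within pregnancy. The closest pair of all was anestrus 3 with pregnancy 3. Values of the 3 libraries of a stage did not overlap with those of the other in 12 genes (9.23%), of which 7 (5.38%) were higher in pregnancy and 5 (3.85%) lower. For each of these an exact two-sided permutation test gave p = 0.1, the smallest that 3 against 3 libraries allow.

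The genes below were put into groups by function after their values had been seen, so the counts describe them and no test of a group was made. Leukocyte surface and signalling genes stood highest. CD84 (chromosome 3, 8325462-8379941, minus strand) encodes a self-binding receptor of the SLAM family, found on macrophages, platelets and lymphocytes. Its level was 1.83, 2.66 and 0.760 FPKM in anestrus 1 to 3 and 6.35, 2.87 and 3.85 FPKM in pregnancy 1 to 3. Every pregnancy library exceeded every anestrus library, although pregnancy 2 did so by little. The mean was 1.75 ± 0.952 FPKM in anestrus and 4.36 ± 1.79 FPKM in pregnancy (SD, n = 3 per stage). The log2 fold change was 1.35, with a 95% interval of 0.30 to 2.39, and the exact permutation p was 0.1 (limma, unadjusted p = 0.017, Benjamini-Hochberg adjusted p = 0.874). CD84 no longer met the standard without anestrus 3, the lowest library (0.87), or without pregnancy 1, the highest (1.04), nor with a pseudocount of 1 (0.97).

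The SLAM family member 6 gene encodes a related receptor of T, B and natural killer cells, and lies beside CD84 on the same strand (chromosome 3, 8267785-8289379). It had 1.33, 2.61 and 0.974 FPKM in anestrus and 7.22, 2.38 and 2.96 FPKM in pregnancy. Here the stages overlapped, because pregnancy 2 fell below anestrus 2, and the difference of 1.25 (interval 0.12 to 2.37, limma, adjusted p = 0.874 after Benjamini-Hochberg) rested largely on pregnancy 1. It was 0.78 without pregnancy 1, 0.96 without anestrus 3 and 1.16 without anestrus 1, and the standard was not met in these 3 fits, nor with a pseudocount of 1 (0.91).

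CD96 encodes a receptor of T and natural killer cells that binds the poliovirus receptor. Its levels were 0.995, 1.07 and 0.732 FPKM in anestrus and 1.70, 1.15 and 2.67 FPKM in pregnancy, again without overlap. The log2 fold change of 0.85 (interval -0.04 to 1.75) did not meet the standard, and became 1.13, which did, without pregnancy 2. It was 0.56 without pregnancy 3, the highest library, and 0.46 with quantile normalization. The span of CD96 on the plus strand of chromosome 1 overlaps that of ZBED2 on the minus strand, and whether the counting used strand is not given in the sources used here.

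ITGB2, the common beta chain of the leukocyte integrins, had 4.26, 5.86 and 2.95 FPKM in anestrus and 10.5, 3.33 and 6.29 FPKM in pregnancy. SAMSN1, an adaptor of lymphoid and mast cells, had 0.624, 1.97 and 1.25 FPKM in anestrus and 3.596, 1.49 and 1.096 FPKM in pregnancy. Both overlapped between the stages, with log2 fold changes of 0.51 (interval -0.60 to 1.63) and 0.60 (interval -0.62 to 1.83). Without pregnancy 1 these differences were 0.12 and 0.13. Without the lowest anestrus library they were 0.27 for ITGB2 (anestrus 3) and 0.20 for SAMSN1 (anestrus 1), and without pregnancy 2 the difference of ITGB2 was 0.93. That of SAMSN1 was 0.96 without anestrus 2 and 0.94 without pregnancy 3.

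The estimate was above 0 in 5 of 5 leukocyte genes and 2 met the standard, with a median log2 fold change of 0.85. Among all genes tested, 61 of 130 were above 0, 2.31% met the standard and the median was -0.03. As these genes were grouped with their values in view, this contrast is a description and not a test. The 4 cytokine receptor chains described below were placed in another group and had estimates below 0. The summed level of the 5 leukocyte genes was 9.04, 14.2 and 6.67 FPKM in anestrus 1 to 3 and 29.3, 11.2 and 16.9 FPKM in pregnancy 1 to 3. Pregnancy 2 thus lay between anestrus 1 and anestrus 2. Pregnancy 1 was the highest of the 6 libraries in CD84, the SLAM family member 6 gene, ITGB2 and SAMSN1, while pregnancy 3 was highest in CD96. Anestrus 3 was the lowest in 4 of the 5 genes, SAMSN1 being the exception. Estrus libraries 1 to 3 had sums of 18.9, 20.0 and 9.82 FPKM, so that estrus 1 and 2 fell inside the range of the pregnancy libraries and estrus 3 inside that of the anestrus libraries. None of the 5 genes passed adjustment. In whole tissue, a difference in the number of leukocytes and one in these transcripts per leukocyte cannot be told apart. Of the wider lists of immune cell markers, 1 of 22 macrophage genes (CD84), 1 of 27 T and natural killer cell genes (CD96) and 0 of 15 B and plasma cell genes are among the 173 genes, so the defining markers of these cells were not analysed here.

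**Figure D2:**
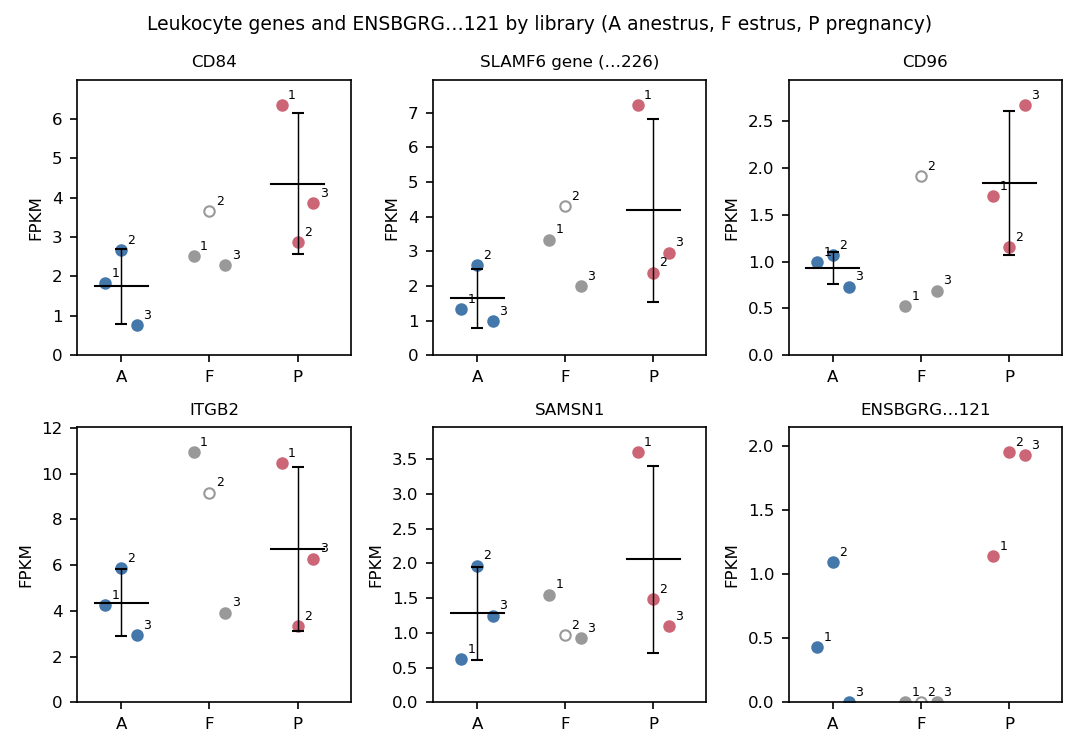
FPKM of 5 leukocyte genes and ENSBGRG00000000121 in each library of anestrus (A), estrus (F) and pregnancy (P), with replicate numbers beside the points. Lines and bars are the mean ± SD of 3 libraries, not drawn for ENSBGRG00000000121, which is listed at 0 in anestrus 3, and the open circle is YO_F2, which was not in the fit; pregnancy 1 is the top pregnancy library in CD84, the SLAM family member 6 gene, ITGB2 and SAMSN1.

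CD84 and the SLAM family member 6 gene are neighbours. Near them on chromosome 3, ENSBGRG00000000219 (8185401-8186749, minus strand) is annotated with the mediator complex, the bridge between transcription factors and RNA polymerase II. It was scarce and did not overlap between the stages, with 0.264, 0.0774 and 0.0977 FPKM in anestrus and 0.302, 0.304 and 0.576 FPKM in pregnancy. Its log2 fold change was 1.03 (interval -0.11 to 2.18) and shrank to 0.28 with a pseudocount of 1. VANGL2 (8158875-8170326), a planar polarity protein on the other side of it, had 4.87, 6.85 and 7.53 FPKM in anestrus and 4.24, 7.45 and 6.12 FPKM in pregnancy. With a log2 fold change of -0.12 (interval -0.80 to 0.55), VANGL2 differed by less than the spread between libraries.

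ENSBGRG00000000121 (chromosome 1, 35817746-35833047, plus strand) had the largest fold change of the 130 genes. It has no symbol, and its only annotated process is brown fat cell differentiation. The values were 0.432, 1.09 and 0 FPKM in anestrus and 1.14, 1.95 and 1.93 FPKM in pregnancy, and it was listed at 0 in all 3 estrus libraries. The highest anestrus library and the lowest pregnancy library were nearly equal. The fitted log2 fold change of 2.11 (interval 0.25 to 3.98, limma, adjusted p = 0.874 after Benjamini-Hochberg) depended on how the listed 0 was treated. It was 0.87 with a pseudocount of 1 and 3.27 with a pseudocount of 0.01, and 1.12 without anestrus 3, and the standard was met in none of these 3 fits. It was also not met without anestrus 1 (2.32), pregnancy 2 (1.99) or pregnancy 3 (2.00).

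Receptor chains for interferons and interleukin 10 lay slightly lower. These lie side by side on chromosome 1. IFNAR1 (36937136-36967325, plus strand), a chain of the type I interferon receptor, had 16.3, 24.6 and 10.6 FPKM in anestrus and 11.5, 11.02 and 10.1 FPKM in pregnancy. The pregnancy libraries were tightly grouped while the anestrus libraries spanned more than a doubling. The log2 fold change of -0.57 (interval -1.25 to 0.10, limma, adjusted p = 0.874 after Benjamini-Hochberg) was under 1 in size and did not meet the standard. Without anestrus 2, it was -0.27.

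IFNGR2 (37032802-37065571), the signalling chain of the interferon gamma receptor, had 24.0, 32.7 and 23.5 FPKM in anestrus and 23.8, 21.3 and 26.4 FPKM in pregnancy. IL10RB (36829072-36863430), shared by the receptors of interleukin 10 and of interferon lambda, had 8.35, 11.2 and 7.42 FPKM in anestrus and 8.97, 6.69 and 6.83 FPKM in pregnancy. ENSBGRG00000000131 (36786295-36826818), annotated to cytokine receptor interaction and Jak-STAT signalling, had 8.64, 14.5 and 9.37 FPKM in anestrus and 9.04, 9.58 and 9.43 FPKM in pregnancy. In each of these 4 genes the highest of the 6 libraries was anestrus 2, and the stages overlapped. Estimates were below 0 in 4 of 4, against 69 of 130 among all genes, with a median of -0.21. Intervals stayed within 1 log2 unit of 0 in 3 of 4, against 79 of 130. Without anestrus 2 the log2 fold change was -0.08 for IL10RB, 0.00 for IFNGR2 and 0.05 for ENSBGRG00000000131. IFNAR1 and IFNGR2 are the 2 members, of 34, of the interferon response list that could be examined. Of these, 0 of 2 met the standard, against 3 of 130 (2.31%) among all genes.

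Of the 3 redox genes, SOD1 did not overlap between the stages, against 12 of 130 (9.23%) among all genes. The standard was met by 0 of the 3, against 3 of 130 (2.31%). SOD1 encodes the cytosolic copper and zinc superoxide dismutase, which turns superoxide into hydrogen peroxide. The level was 79.3, 73.4 and 77.4 FPKM in anestrus and 88.7, 105.8 and 91.2 FPKM in pregnancy, without overlap. The mean was 76.7 ± 2.98 FPKM in anestrus and 95.3 ± 9.25 FPKM in pregnancy (SD, n = 3), with a log2 fold change of 0.31 (interval 0.07 to 0.54, limma, unadjusted p = 0.016, adjusted p = 0.874 after Benjamini-Hochberg). This gene had the lowest unadjusted p of the 130 but a change of well under 1 log2 unit, and its estimate stayed between 0.23 and 0.36 when any library was left out. SOD1 is the only 1 of 30 antioxidant enzyme genes that could be examined. Estrus libraries, at 101.8, 134.6 and 99.97 FPKM, were above all 3 anestrus libraries as well.

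NFE2L2, the transcription factor that switches on antioxidant genes, had 63.2, 58.4 and 69.2 FPKM in anestrus and 68.2, 75.6 and 68.9 FPKM in pregnancy. BACH1, which represses many of the same genes, had 3.52, 5.43 and 3.52 FPKM in anestrus and 3.06, 2.79 and 3.62 FPKM in pregnancy. Their log2 fold changes were 0.16 (interval -0.08 to 0.40) and -0.36 (interval -0.95 to 0.23), and both overlapped between the stages. Without anestrus 2, the highest library for BACH1 and the lowest for NFE2L2, the estimates were 0.10 for NFE2L2 and -0.16 for BACH1.

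Mitochondrial genes differed little between the stages. All 9 intervals stayed within 1 log2 unit of 0, and the median log2 fold change was 0.00. OMA1, the stress-activated protease of the inner membrane, stood apart with 4.81, 4.35 and 4.60 FPKM in anestrus and 6.17, 6.08 and 6.71 FPKM in pregnancy. These groups did not overlap, and both were tight, at 4.59 ± 0.231 and 6.32 ± 0.341 FPKM (SD, n = 3). The log2 fold change was 0.45 (interval -0.01 to 0.92, limma, adjusted p = 0.874 after Benjamini-Hochberg) and ranged from 0.41 to 0.49 when single libraries were left out. Estrus libraries had 8.01, 9.25 and 5.20 FPKM of OMA1, each above every anestrus library.

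The remaining 8 mitochondrial genes overlapped between stages. PINK1, the kinase that marks damaged mitochondria, had 13.3, 12.7 and 13.5 FPKM in anestrus and 13.3, 15.3 and 13.6 FPKM in pregnancy, with spans of DDOST, KIF17 and SH2D5 overlapping it on the other strand. GABPA, a transcription factor for respiratory chain genes, had 8.16, 9.21 and 11.7 FPKM in anestrus and 10.9, 10.8 and 11.8 FPKM in pregnancy. The ATP synthase gene ENSBGRG00000000144 had 196.8, 186.6 and 185.1 FPKM in anestrus and 186.3, 170.3 and 167.0 FPKM in pregnancy, so that 2 of 3 pregnancy libraries lay under all anestrus libraries. Its estimate was -0.12 (interval -0.33 to 0.09). Proteins of the mitochondrial ribosome (MRPL39, MRPS6, MRPS33), a second ATP synthase gene (ENSBGRG00000000060) and a respiratory chain assembly gene (ENSBGRG00000000028) had log2 fold changes from -0.10 to 0.04.

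**Figure D3:**
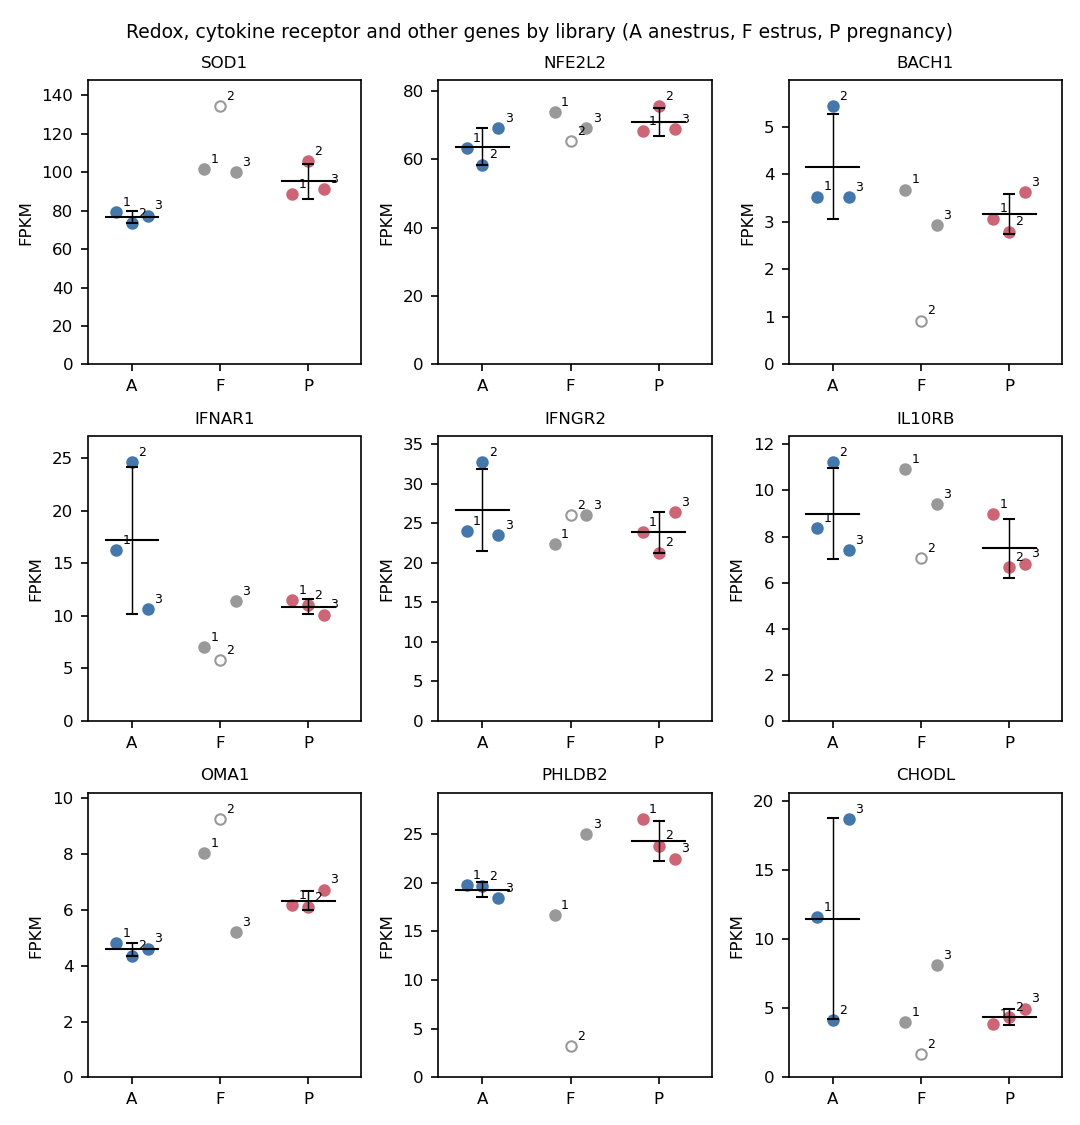
FPKM by library for 3 redox genes, 3 cytokine receptor chains, OMA1, PHLDB2 and CHODL in anestrus (A), estrus (F) and pregnancy (P), with lines and bars for the mean ± SD of 3 libraries and an open circle for YO_F2. SOD1, OMA1 and PHLDB2 do not overlap between A and P, whereas the highest IFNAR1 point is anestrus 2 and the highest CHODL point anestrus 3.

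Adhesion and guidance genes held the lowest fold change of the 130 genes. CHODL (chromosome 1, 18845347-18869739, plus strand), a membrane C-type lectin, had 11.6, 4.15 and 18.7 FPKM in anestrus and 3.83, 4.35 and 4.98 FPKM in pregnancy. The pregnancy libraries lay close together, and anestrus 2 was at their level while anestrus 1 and 3 were well above it. Estrus 1 to 3 had 3.98, 1.66 and 8.13 FPKM of CHODL, which lay inside, below and above the range of the pregnancy libraries. The mean was 11.5 ± 7.28 FPKM in anestrus and 4.39 ± 0.573 FPKM in pregnancy (SD, n = 3). The log2 fold change of -1.13 (interval -2.26 to 0.00, limma, unadjusted p = 0.050) missed the standard narrowly. It was -0.66 without anestrus 3, and -1.73 without anestrus 2, where it met the standard.

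PHLDB2, which anchors microtubules at the cell cortex, had 19.8, 19.6 and 18.4 FPKM in anestrus and 26.5, 23.8 and 22.5 FPKM in pregnancy. It did not overlap, with a log2 fold change of 0.33 (interval -0.04 to 0.70). Estimates for the other 10 genes of this group lay between -0.60 and 0.46. They comprise the guidance receptors ROBO1 and ROBO2, the ephrin receptor EPHA3, the junction proteins JAM2, CXADR, NECTIN3 and CLDN8, the adhesion molecule NCAM2, the Rac activator TIAM1 and VANGL2, and all overlapped between the stages. In all, 3 of 12 adhesion and guidance genes had estimates above 0 and 0 met the standard. Among all genes, 61 of 130 were above 0 and 3 of 130 (2.31%) met it. CLDN8 was listed at 0 in all libraries of both stages except anestrus 1, at 0.197 FPKM. It passed the limit of 0.1 FPKM only through YO_F2, at 1.79 FPKM, which was not in the fit. Its estimate of -0.52 is counted among those below 0.

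Matrix genes did not separate the stages. ADAMTS1, a protease of the follicle wall induced around ovulation, had 79.4, 136.8 and 106.5 FPKM in anestrus and 94.9, 114.0 and 169.5 FPKM in pregnancy. Its relative ADAMTS5 had 1.88, 1.39 and 1.92 FPKM in anestrus and 1.79, 1.61 and 0.741 FPKM in pregnancy. Neither difference exceeded the spread between libraries, at 0.22 (interval -0.47 to 0.92) and -0.38 (interval -1.23 to 0.47). These are the 2 of 23 matrix proteases and inhibitors that could be examined, with a median of -0.08. Of the 2, 0 met the standard, against 3 of 130 (2.31%) among all genes. PCOLCE2, an enhancer of procollagen processing, had 34.0, 19.0 and 16.3 FPKM in anestrus and 21.6, 15.8 and 18.1 FPKM in pregnancy. CHST2, a sulfotransferase of glycan chains, had 4.95, 6.63 and 4.72 FPKM in anestrus and 6.25, 4.05 and 4.41 FPKM in pregnancy. Both overlapped between the stages, with log2 fold changes of -0.26 and -0.15.

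Among transcription regulators and kinases, 2 of 4 estimates were above 0 and 0 of 4 intervals stayed within 1 log2 unit of 0. Among all genes these were 61 and 79 of 130. NRIP1, a nuclear receptor corepressor needed for ovulation in mice, had 9.65, 6.28 and 7.33 FPKM in anestrus and 4.99, 4.18 and 8.79 FPKM in pregnancy. RCAN1, a calcineurin inhibitor, had 3.66, 17.6 and 20.7 FPKM in anestrus and 4.04, 13.3 and 7.29 FPKM in pregnancy. Library 1 was the lowest of its stage for RCAN1 in both stages, and the difference of -0.59 (interval -2.05 to 0.88) was -1.37, and met the standard, without anestrus 1. VGLL3, a cofactor of TEAD transcription factors, had 6.41, 2.24 and 2.81 FPKM in anestrus and 5.80, 3.55 and 5.17 FPKM in pregnancy. HUNK, a kinase, ranged from 0.244 to 0.779 FPKM over the 6 libraries.

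The 5 genes lower in every pregnancy library than in every anestrus library were SON, PAXBP1, DONSON, SH2D5 and ENSBGRG00000000233, and none of them met the standard. SON, a nuclear speckle protein needed for splicing, had 41.1, 40.5 and 38.9 FPKM in anestrus and 37.96, 33.7 and 37.4 FPKM in pregnancy. PAXBP1, a binding partner of PAX3 and PAX7, had 29.9, 37.5 and 30.6 FPKM in anestrus and 26.7, 29.9 and 27.4 FPKM in pregnancy. DONSON, a protein of the replication fork, had 7.50, 5.89 and 6.21 FPKM in anestrus and 5.09, 4.95 and 5.72 FPKM in pregnancy. In all 3 the lowest anestrus library and the highest pregnancy library were less than 1 FPKM apart. Their log2 fold changes were -0.15, -0.22 and -0.30, and each interval included 0. DONSON shares its strand and part of its span with CRYZL1, and SON with ENSBGRG00000000140, so reads of these pairs may be split between them. ROBO1, RCAN1, RBM11, SLC9A9, SH2D5 and APP also overlap the span of another gene of the table.

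SH2D5 had 0.664, 0.271 and 0.278 FPKM in anestrus and 0.224, 0.225 and 0.0731 FPKM in pregnancy, a level at which no interval of these data stayed within 1 log2 unit of 0. ENSBGRG00000000233 had 8.27, 11.7 and 8.28 FPKM in anestrus and 7.01, 6.74 and 8.04 FPKM in pregnancy. It was listed at 0 in estrus 1 and 2 and at 10.2 FPKM in estrus 3. That estrus spread widened the interval of its estimate of -0.36, from -3.34 to 2.63.

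Other RNA processing genes overlapped, namely SCAF4, U2SURP, RBM11 and the gene annotated as heterogeneous nuclear ribonucleoprotein A3 (ENSBGRG00000000202), with estimates from -0.17 to 0.25. Other genome duplication and division genes (MIS18A, which loads the centromeric histone, the antiproliferative BTG3, and PTTG1IP, a partner of securin) had estimates from -0.60 to 0.00. MIS18A was under 1 FPKM in the 6 libraries and had the widest interval of them, -2.49 to 1.30. It was listed at 0 in estrus 1 and at 1.20 FPKM in estrus 3, a spread that also entered the fit.

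Protein folding and turnover genes were measured closely, and 10 of 10 intervals stayed within 1 log2 unit of 0. PSMD2, a subunit of the proteasome cap, had 60.6, 65.8 and 57.5 FPKM in anestrus and 57.9, 50.5 and 52.5 FPKM in pregnancy. HSPA13, an Hsp70 relative of the endoplasmic reticulum, had 14.2, 15.3 and 15.6 FPKM in anestrus and 16.6, 13.0 and 15.5 FPKM in pregnancy. The estimate for PSMD2 was -0.19 (interval -0.43 to 0.05). That for HSPA13, the only 1 of 28 heat shock genes examined, was -0.01 (interval -0.32 to 0.30), so a change of 1.5-fold in HSPA13 lay outside the interval. The protein folding gene ENSBGRG00000000078 had 87.4, 81.0 and 65.2 FPKM in anestrus and 69.6, 67.8 and 54.1 FPKM in pregnancy, with an estimate of -0.28 (interval -0.63 to 0.07). The deubiquitinases USP25 and USP16, the ubiquitin enzymes UBE2G2 and LTN1, CHMP2B of the membrane-cutting ESCRT complex, the reticulophagy factor RETREG2 and DDOST of the glycosylation complex had estimates from -0.24 to 0.25.

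Metabolic enzymes and transporters split evenly, with 3 of 6 estimates above 0 and 0 that met the standard. Among all genes, 61 of 130 were above 0 and 3 of 130 (2.31%) met it. CA14, a membrane carbonic anhydrase, had 4.33, 3.71 and 4.71 FPKM in anestrus and 8.47, 5.85 and 4.27 FPKM in pregnancy, an estimate of 0.49 with a standard error of 0.31. GART, an enzyme of purine synthesis, had 11.4, 10.6 and 9.31 FPKM in anestrus and 10.9, 6.89 and 8.54 FPKM in pregnancy, an estimate of -0.27 (interval -0.71 to 0.17). Both overlapped between the stages. AGPS, which starts ether lipid synthesis in peroxisomes, and ABCD3, a peroxisomal transporter, had estimates of -0.24 and -0.17. GBE1 of glycogen synthesis and the proton exchanger SLC9A9 had 0.01 and 0.15. FAM207A, named by the rule for genes to report, had 13.3, 12.1 and 11.5 FPKM in anestrus and 9.80, 11.8 and 7.64 FPKM in pregnancy, an estimate of -0.35 (interval -0.79 to 0.08).

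APP, the amyloid precursor protein, was among the most abundant of the 130 genes, with 213.5, 301.0 and 275.4 FPKM in anestrus and 280.3, 319.1 and 256.9 FPKM in pregnancy. APH1A, a subunit of the gamma-secretase that cuts it, had 15.4, 12.6 and 12.3 FPKM in anestrus and 14.1, 8.60 and 9.99 FPKM in pregnancy. The estimates were 0.13 (interval -0.23 to 0.48) and -0.32 (interval -0.77 to 0.13), with overlap in both.

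**Figure D4:**
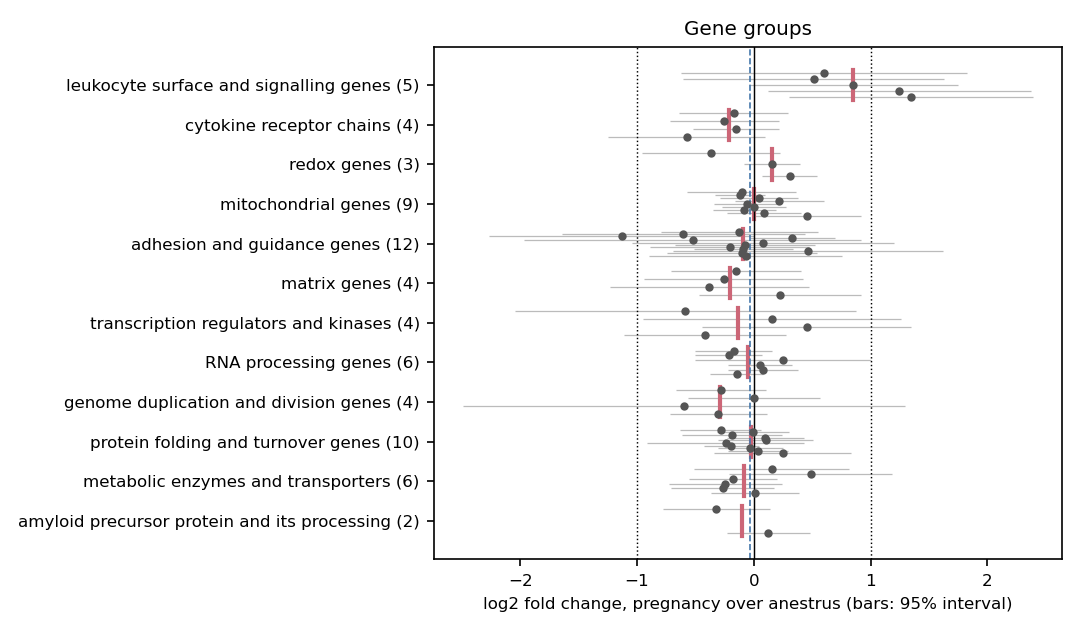
Log2 fold changes (pregnancy over anestrus) of the genes in 12 functional groups, with the number of genes in parentheses; points are genes, grey bars 95% intervals, coloured ticks group medians, and the dashed line the median of all 130 genes. The leukocyte group (median 0.85) lies farthest from 0, and the mitochondrial and the protein folding and turnover intervals all stay between the dotted lines at 1 log2 unit.

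No gene was above 0 in all 3 libraries of 1 stage and listed at 0 in all 3 of the other. Of the 173 genes, 119 were above 0 in all 6 libraries and 10 were listed at 0 in all 6. Another 10 were listed at 0 in the 3 anestrus libraries only, with at most 0.105 FPKM in pregnancy, and 13 in the 3 pregnancy libraries only, with at most 0.437 FPKM in anestrus. None of these genes was above 0 in all 3 libraries of the other stage. The 43 genes below the limit of 0.1 FPKM on average did not exceed 0.437 FPKM in any anestrus or pregnancy library, and 31 of them have no symbol. The number of fragments behind a value is not known from FPKM, so no counting error can be given for these low values.

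**Figure D5:**
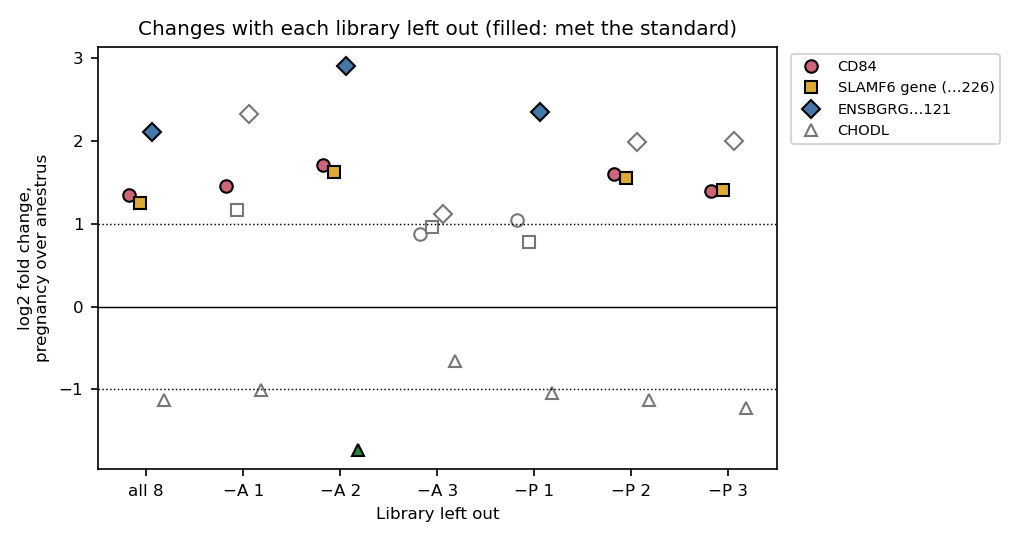
Log2 fold change of CD84, the SLAM family member 6 gene, ENSBGRG00000000121 and CHODL with all 8 libraries and with each anestrus (A) or pregnancy (P) library left out; filled symbols met the study's standard and dotted lines mark a log2 fold change of 1 in size. Without anestrus 3, none of the 4 genes met it, and without anestrus 2 all 4 did.

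The m6A peaks were called on pooled libraries of a stage, so they have no replicate error. The pregnancy list analysed here holds 282 peaks and the anestrus list 9, which end at position 22449705 of chromosome 1, so most genes can be looked up in pregnancy only. The pregnancy list holds chromosome 1 alone, with positions that run over its length, mainly in plus-strand genes, and then start again and end at 46144327. Genes on the other chromosomes, among them CD84 and the SLAM family member 6 gene, could not be looked up. Going by the gene named for each peak, a listed peak was held by 19 of the 44 plus-strand genes of chromosome 1. The same held for 22 of the 38 minus-strand genes up to position 46144327. IFNAR1 and IFNGR2 each had 1 in an exon, with fold enrichments of 4.14 and 2.96 over input, SON had 5, from 2.66 to 18.1, and BACH1 had 1, at 8.47. CHODL had a peak in the 3′ UTR in the anestrus list, at 5.03-fold, and none in the pregnancy list, where its RNA was also at a lower mean level. RBM11 and NCAM2 also had a listed peak in anestrus, at 3.48-fold and 2.05-fold, and none under their names in pregnancy. A pregnancy peak named for LIPI (14212338-14212548, 4.86-fold) starts where RBM11 starts and ends beyond the span of LIPI. It may therefore belong to RBM11. The mean levels of these genes were higher in pregnancy, at 3.77 against 3.31 FPKM for RBM11 and 2.66 against 2.13 FPKM for NCAM2. Whether the RNA level bears on peak detection was not tested.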

How the data were processed

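Per the study's methods and labels, poly(A) RNA was sequenced from stranded libraries as paired reads. The authors filtered reads with fastp, aligned them to the Bos grunniens genome with HISAT2 (2.0.4 in the submitters' processing notes), quantified genes with StringTie, and deposited FPKM per gene and library. The peak lists that the authors deposited hold the fold enrichment over input (a ratio) and score columns with the log10 of p and FDR, with annotation for which the notes name ChIPseeker 1.18.0. The authors' tables comparing peaks between stages hold fold changes and p-values and were not used. Build and peak caller are not given in the sources used here, other than a genome version for the alignment. Coordinates are those of the authors' files.

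The first 173 genes with values were analysed, and 1 line without values was left out. The values were taken as log2(FPKM + 0.1). The study's own test models counts, which FPKM does not hold, so limma 3.58.1 (R 4.3.3; empirical Bayes with a trend) was fitted to 8 libraries of 3 stages, with 95% intervals and Benjamini-Hochberg adjustment over 130 genes. Exact two-sided permutation tests compared log2 values of single genes. The fit was tested on simulated data in which the changes were larger than any estimate reported here. That test therefore does not bear on the detection of changes of the reported size. Tables and figures were made in Python 3.11.15 (pandas 2.3.3, numpy 2.4.6, matplotlib 3.10.9, scipy 1.17.1). Alternatives were pseudocounts of 1 and 0.01, no minimum or a mean of 1 FPKM, YO_F2 included, only the 2 stages, median-ratio scaling, quantile normalization, no trend, the replicate number as a block, and each library left out.

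The comparison, the genes and the lists were chosen with earlier results of these data known. Of 849 genes in 35 lists, 8 genes in 6 lists are in the table, and 0 of 20 genes that the paper names. The rule for genes to report took, in each direction, up to 8 genes that met the standard without overlap at a mean of at least 1 FPKM and the 4 with the lowest p, all with a symbol, then up to 4 members of each list, the genes the paper names, and genes at 0 in all libraries of 1 stage only. It gave 12 genes: CD84, SOD1, OMA1, CD96, CHODL, IFNAR1, IFNGR2, PSMD2, FAM207A, ADAMTS1, ADAMTS5 and HSPA13. Any other gene was picked with its values in view. A limma p-value sets the difference between the stages against the spread between samples of the same stage. That spread was pooled over all stages in the fit, estrus included, and adjusted by the empirical Bayes step. It is therefore not the spread of the anestrus and pregnancy libraries alone. No sequences are shown.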

Additional observations from a re-analysis of the deposited data

How the results depend on the processing

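The number of genes that met the standard, 3 in the reported fit, was 1 with a pseudocount of 1 (CHODL, lower, and 0 higher) and 2 to 4 in the other alternatives that kept every library. It was 1 to 4 when single libraries were left out, with 1 to 3 higher and 0 or 1 lower, and the 1 was without anestrus 3. The single gene lower in pregnancy was CHODL with only the 2 stages compared (1 gene), without anestrus 2 (-1.73), estrus 1 or estrus 3, RCAN1 without anestrus 1 (-1.37), and ENSBGRG00000000153 without pregnancy 2 (-1.65). Higher in pregnancy, ENSBGRG00000000079 (1.12, without anestrus 3) and ENSBGRG00000000022 (1.15, without pregnancy 1) also met it once, and ENSBGRG00000000219 met it with no minimum or no trend (1.03) and without anestrus 1 (1.35). With limma and Benjamini-Hochberg adjustment, 0 genes passed an adjusted p of 0.05 in the 18 alternatives. There the smallest adjusted p ranged from 0.123 (without anestrus 2) to 0.991, and 3 to 7 genes had an unadjusted p under 0.05. CD84, the SLAM family member 6 gene and ENSBGRG00000000121 kept estimates above 0 in every alternative that gave one, and quantile normalization (1.08) and no minimum (1.25) also took the SLAM family member 6 gene below the standard.

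Same-numbered anestrus and pregnancy libraries came from cows killed in different months, so the numbers were not taken as pairs. Their deviations from the stage means had an r across genes of 0.39, -0.06 and -0.11. For anestrus 2 with pregnancy 3, which differ in number, it was 0.48. With the replicate number as a block, 4 genes met the standard, 3 of them higher and 1, CHODL (-1.13), lower, and 0 passed adjustment.

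Of 77 genes described, 50 kept their direction in all alternatives run, and the others had estimates between -0.26 and 0.25. When single libraries were left out, their log2 fold change ranged from -0.0134 to 0.41 for ADAMTS1, -0.0184 to 0.23 for APP, -0.23 to 0.24 for BTG3, -0.34 to 0.00545 for CXADR, -0.35 to 0.000139 for DDOST, -0.25 to 0.0436 for ENSBGRG00000000028, -0.0428 to 0.14 for ENSBGRG00000000060, -0.32 to 0.0544 for ENSBGRG00000000131 and -0.0717 to 0.15 for GBE1. It ranged from -0.0841 to 0.0916 for HSPA13, -0.21 to 0.41 for HUNK, -0.24 to 0.00197 for IFNGR2, -0.28 to 0.11 for JAM2, -0.10 to 0.00066 for MRPS33, -0.0642 to 0.0753 for MRPS6, -0.46 to 0.59 for NCAM2, -0.33 to 0.0677 for NECTIN3 and -0.47 to 0.0572 for PCOLCE2. In the remaining genes it ranged from -0.10 to 0.46 for RBM11, -0.30 to 0.35 for ROBO1, -0.40 to 0.11 for ROBO2, -0.16 to 0.33 for SLC9A9, -0.0138 to 0.14 for U2SURP, -0.10 to 0.0459 for UBE2G2, -0.00089 to 0.0749 for USP16 and -0.31 to 0.0964 for VANGL2. With quantile normalization it was 0.00422 for MRPL39, 0.011 for ROBO1, -0.24 for NCAM2, 0.0222 for UBE2G2 and 0.0384 for HSPA13. The causes of these reversals were not tested.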

Other observations

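The unnamed genes described here lie outside the functional groups and had wide spreads among libraries of the same stage. ENSBGRG00000000153, a short gene of chromosome 1 (38262094-38262486) annotated to a potassium channel regulator, had 2.93, 2.56 and 1.58 FPKM in anestrus and 0.332, 2.25 and 1.23 FPKM in pregnancy. Its estimate was -1.11 (interval -2.50 to 0.28). The 3 estrus libraries, at 0.0445, 0.580 and 0.103 FPKM, lay below all anestrus libraries. ENSBGRG00000000022, whose span overlaps that of LIPI on the same strand, had 12.7, 17.8 and 11.8 FPKM in anestrus and 10.5, 20.1 and 47.7 FPKM in pregnancy, so that its estimate of 0.63 (interval -0.49 to 1.76) rested on pregnancy 3, and was 0.06 without it. ENSBGRG00000000079, annotated to MAPK signalling, had 1.29, 3.55 and 4.50 FPKM in anestrus and 4.04, 6.51 and 4.25 FPKM in pregnancy, with an estimate of 0.78 (interval -0.20 to 1.76). The estimate was 0.26 without anestrus 1.

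Among the 44 tested genes on the plus strand of chromosome 1, 19 held a listed pregnancy m6A peak and 25 did not. The median log2 fold changes of the 19 and the 25 genes were -0.07 and 0.07, and their median levels over the 9 libraries 8.84 and 3.64 FPKM. No comparison beyond these values was made.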
